A study of Mus musculus with 49 samples.

Results

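The 48 genes described here encode enzymes and subunits that write, read or remove marks on DNA and histones, or move nucleosomes: DNA methyltransferases and TET dioxygenases, the Polycomb repressive complexes, H3K27 demethylases and Trithorax cofactors, deacetylases, SWI/SNF, ISWI and NuRD remodellers, H3K9 methyltransferases and Ctcf. They were chosen by name, with earlier results of these data known, and 46 of the 48 were matched by symbol among the 13093 genes of the expression table. Cbx7 and Ring1 were not analysed here. The values come from 49 individually captured cells of mouse metanephric mesenchyme, the embryonic tissue from which nephrons and kidney stroma form, at 11.5 days post coitum (Theiler stage 19). All embryos carried the Tg(Crym-EGFP)82Gsat transgene on a mixed background, and both sexes were used. The transgene is a fluorescent reporter that guided the dissection, which also took cells outside the labelled area. No embryo or litter is named for any cell, so the 49 cells count as 1 sample. Every difference below is between cells of that sample and none was tested.

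Polycomb repressive complex 2 methylates lysine 27 of histone H3, and Polycomb repressive complex 1 ubiquitinates histone H2A and compacts chromatin. Trithorax complexes methylate lysine 4 of histone H3, and KDM6 enzymes remove the lysine 27 mark. In the developing kidney, the transcription factor SALL1 recruits the NuRD complex, PTIP (the product of Paxip1) links PAX2 to lysine 4 methylation, and nephron progenitors need Dnmt1 and the deacetylases Hdac1 and Hdac2.

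Values are RPKM, reads scaled by gene length and by each cell's mapped reads, so levels of different genes can be set side by side. A gene counts as detected in a cell at 1 RPKM or more, and intervals on shares of cells are exact (Clopper-Pearson) 95% binomial intervals that cover counting error only. Relative depth was 0.693 to 1.52 times the median in 47 cells and only 0.0346 in cell 3 and 0.0462 in cell 7. Between 3610 genes (cell 44) and 6510 genes (cell 47) were detected per cell, with a median of 5210. The highly expressed genes Actb, Gapdh, Ppia and Ubb were detected in all 49 cells. Lower genes that every cell uses were missed in places: Hprt stood at 0 in 6 cells and the TATA-binding protein gene Tbp in 19. A gene listed at 0 can therefore be a failure of capture. Mesenchyme markers differed in spread. Wt1 was detected in 47 cells, Sall1 in 44 and Meis1 in 49. Others were patchier, among them Eya1 (32 cells), Pdgfrb (19), Tbx18 (18), Gdnf (16), Cited1 (12) and Pax2 (8). Cell 25 held 9 of 10 ureteric bud list genes and cell 27 held 7 endothelial list genes. Six2, the nephron progenitor factor, was detected in 27 cells, and Foxd1, the stromal progenitor factor, in 24.

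Chromatin modifier genes were detected in more cells than most genes of the table. A median of 35 of the 46 were detected per cell, 76.1%, against 39.8% of all 13093 genes in the median cell. The lowest number was 27 in cell 45 and the highest 41 in cell 21. The number rose with the number of genes detected in the cell (Spearman rho 0.782 over 49 cells of 1 run, which share that measure). The median gene of the group was detected in 38 cells, against 16 cells for the median gene of the table, and 22 of the 46 (47.8%) were detected in 40 or more cells, against 15.4% of all genes. Only 7 were detected in 24 or fewer cells, namely Dnmt3b, Ezh1, Bmi1, Cbx2, Hdac4, Hdac5 and Hdac7. The median of the gene medians was 8.78 RPKM, against 0.0839 RPKM over the table.

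**Figure D1:**
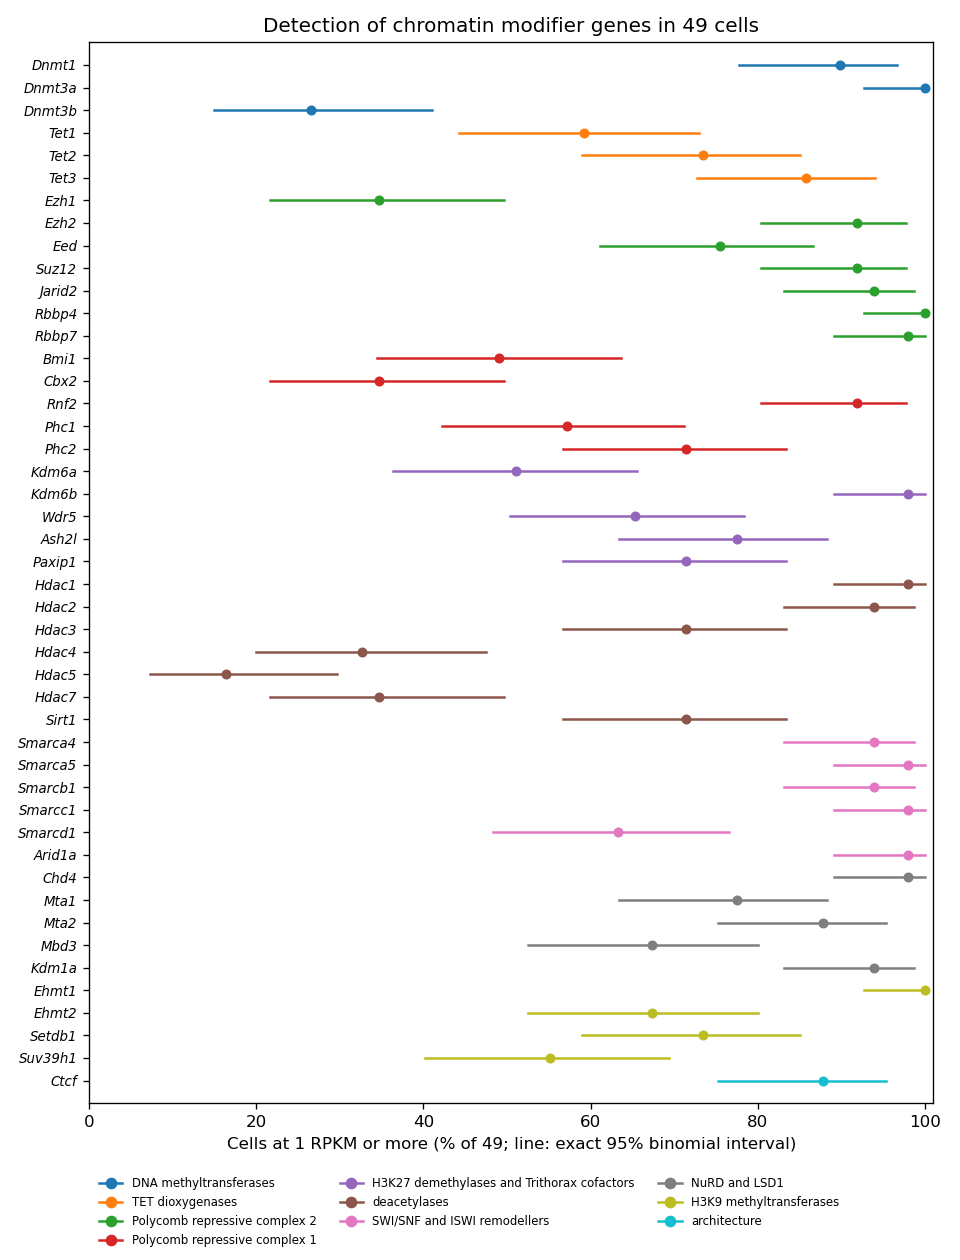
Share of the 49 cells with 1 RPKM or more (x axis, percent) for each of the 46 chromatin modifier genes (y axis), coloured by complex; points are shares and lines exact 95% binomial intervals. Dnmt3a, Rbbp4 and Ehmt1 were detected in 49 of 49 cells, and Hdac5, at the other end, in 8.

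Among the DNA methyltransferases, the maintenance enzyme gene Dnmt1 ranged from 0 to 121 RPKM with a median of 11.6, and was detected in 44 cells. The de novo enzyme gene Dnmt3a was detected in every cell, from 3.95 to 212 RPKM with a median of 25.0. The second de novo enzyme gene, Dnmt3b, had a median of 0 and a highest value of 44.0 RPKM, and was detected in 13 cells (26.5%, interval 14.9 to 41.1%). Every cell with Dnmt3b thus also held Dnmt3a, and 36 cells held Dnmt3a alone. Dnmt3a was the higher of both in 44 cells.

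The TET dioxygenases oxidise methylcytosine, the first step of active demethylation. Tet3 was detected in 42 cells (0.198 to 92.8 RPKM, median 8.14) and Tet2 in 36 cells (0 to 61.5 RPKM, median 9.41). Tet1 was detected in 29 cells, from 0 to 36.4 RPKM with a median of 1.16. At least 1 TET gene was detected in 48 cells and all 3 in 17, while 25 cells held 2 of them and 6 cells held 1. Tet2 and Tet3 stood at like medians without following each other from cell to cell (rho 0.02 over 49 cells), and Tet2 was the higher in 24 cells and Tet3 in 25.

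Among transcripts of Polycomb repressive complex 2, Ezh2 predominated over Ezh1, the 2 alternative genes for its catalytic subunit. Ezh2 ranged from 0 to 523 RPKM with a median of 74.6 and was detected in 45 cells, while Ezh1 ranged from 0 to 38.7 RPKM with a median of 0.0916 and was detected in 17. Ezh2 was the higher of the pair in 43 cells, and 30 cells held Ezh2 alone, 15 both, 2 Ezh1 alone and 2 neither. The highest Ezh2 value was in cell 44, the cell with the fewest genes detected, and the next was 301 RPKM in cell 5.

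Suz12 and Eed, the other core subunit genes, differed in how evenly they were spread. Suz12 was above 0 in every cell (0.0775 to 158 RPKM, median 24.2, detected in 45), whereas Eed was at 0 in 6 cells and reached 232 RPKM (median 5.43, detected in 37). Jarid2, an accessory subunit that guides the complex to DNA, was detected in 46 cells (0.0984 to 107 RPKM, median 26.2). Eed, Suz12 and at least 1 Ezh gene were detected together in 31 of 49 cells (63.3%, interval 48.3 to 76.6%). Those 31 cells had a median of 5258 genes detected and the other 18 a median of 4670.5.

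The histone chaperone genes Rbbp4 and Rbbp7, whose products serve several complexes, were among the highest of the group. Rbbp4 ranged from 17.8 to 263 RPKM with a median of 113 and was detected in every cell. Rbbp7 had a median of 177 RPKM and stood at 0 in 1 cell, cell 44. Its highest value, 4905 RPKM, belongs to cell 7, which has very few reads. The next was 469 RPKM in cell 31. The table places 171 bases of Rbbp7 under the neighbouring gene Txlng, and without strand information reads there cannot be told apart.

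Of the complexes examined, Polycomb repressive complex 1 was the least completely detected by the genes counted here. Rnf2, the gene of the catalytic RING1B subunit, was detected in 45 cells (0 to 377 RPKM, median 61.7). The other subunit genes were patchy. Bmi1, the PCGF4 gene, was detected in 24 cells (0 to 213 RPKM, median 0.54), and Cbx2, the gene of a reader of methylated lysine 27, in 17 cells (0 to 80.9 RPKM, median 0.19). Of the Polyhomeotic genes, Phc1 was detected in 28 cells (0 to 107 RPKM, median 2.29) and Phc2 in 35 (0 to 80.2 RPKM, median 6.32), with 20 cells holding both and 6 neither. Rnf2, Bmi1, Cbx2 and at least 1 Phc gene were detected together in 10 cells (20.4%, interval 10.2 to 34.3%). These 10 cells had a median of 6074 genes detected against 4954 in the others, so completeness moved with the number of genes detected. Since Cbx7 and Ring1 were not analysed here, the count covers only the forms with Cbx2 and Rnf2. It also required Bmi1. Other genes of the complex were not counted, among them Pcgf2 (detected in 26 cells), Pcgf3 (22), Pcgf1 (20), Phc3 (8) and Cbx8 (6). The count is therefore one of the named genes and not of the whole complex.

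Of the H3K27 demethylases, Kdm6b (JMJD3) was detected in 48 cells and held a narrow band, with quartiles at 9.26 and 17.6 RPKM around a median of 13.8 and a highest value of 36.0. Its only undetected cell was the shallow cell 3. Kdm6a (UTX) was detected in 25 cells (0 to 87.3 RPKM, median 1.03), each of which also held Kdm6b. Of the Trithorax cofactors, the WRAD subunit genes Ash2l and Wdr5 were detected in 38 cells (0 to 254 RPKM, median 7.58) and 32 cells (0 to 143 RPKM, median 4.05). Paxip1 was detected in 35 cells (0 to 134 RPKM, median 7.32).

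The deacetylases split by class. Of the class I genes, Hdac1 was detected in 48 cells (0.633 to 557 RPKM, median 134) and Hdac2 in 46 (0.379 to 188 RPKM, median 15.2). Hdac1 was the higher of the pair in 42 of 49 cells. Hdac3, the enzyme of the NCoR and SMRT corepressors, was more uneven: it was at 0 in 8 cells, had 100 RPKM or more in 15, and ranged to 520 RPKM around a median of 27.9. The class IIa genes Hdac4, Hdac7 and Hdac5 were detected in 16, 17 and 8 cells, with highest values of 125, 62.0 and 9.45 RPKM. Hdac5 was thus the least detected gene of the group and the only one that never reached 10 RPKM. Hdac7 shares 11 bases with Slc48a1 in the table. Sirt1, an NAD-dependent deacetylase, was detected in 35 cells (0 to 152 RPKM, median 2.59).

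Among the remodellers, the SWI/SNF ATPase gene Smarca4 (BRG1) was detected in 46 cells (0.121 to 161 RPKM, median 50.0). The core subunit genes Smarcb1 and Smarcc1 were detected in 46 cells (0 to 436 RPKM, median 127) and 48 cells (0.655 to 144 RPKM, median 54.3), and the large subunit gene Arid1a in 48 (0.462 to 105 RPKM, median 29.1). Smarcd1 was the exception, with 31 cells, a median of 1.54 RPKM and a highest value of 25.6. All 5 were detected together in 28 cells (57.1%, interval 42.2 to 71.2%), and the 4 without Smarcd1 in 43. The related genes Smarcd2 and Smarcd3, not counted here, were detected in 13 and 7 cells. Smarca5, the ISWI ATPase gene, was detected in 48 cells (0.144 to 115 RPKM, median 39.8).

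NuRD, which joins a remodelling ATPase to a deacetylase, was complete in most cells by the genes required here. The methyl-binding-domain gene Mbd3 was the required gene most often missing. Its ATPase gene Chd4 was detected in 48 cells (0 to 147 RPKM, median 36.7), Mta2 in 43 (0 to 143 RPKM, median 12.4) and Mta1 in 38 (0 to 50.5 RPKM, median 3.70). Mbd3 was detected in 33 cells (0 to 133 RPKM, median 5.38). The related gene Mbd2, not counted here, was detected in 20 cells. Chd4, an Mta gene, Mbd3, Hdac1 or Hdac2 and Rbbp4 or Rbbp7 were detected together in 32 cells (65.3%, interval 50.4 to 78.3%), and in 47 when Mbd3 was not required. Kdm1a (LSD1), a demethylase of lysine 4 that can join NuRD, was detected in 46 cells (0.324 to 352 RPKM, median 37.7).

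The H3K9 methyltransferase genes were uneven apart from Ehmt1. Ehmt1 (GLP) was detected in every cell (2.58 to 190 RPKM, median 26.1) and its partner Ehmt2 (G9a) in 33 (0 to 128 RPKM, median 5.37), so 16 cells held Ehmt1 alone. Setdb1, which silences retroelements, was detected in 36 cells (0 to 108 RPKM, median 5.14) and shares 43 bases with Lass2 in the table. Suv39h1, a gene of pericentric heterochromatin, was detected in 27 cells (0 to 151 RPKM, median 1.34). Ctcf, the insulator gene, was detected in 43 cells (0 to 141 RPKM, median 33.9), and 936 bases of it are shared with Gm5914.

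**Figure D2:**
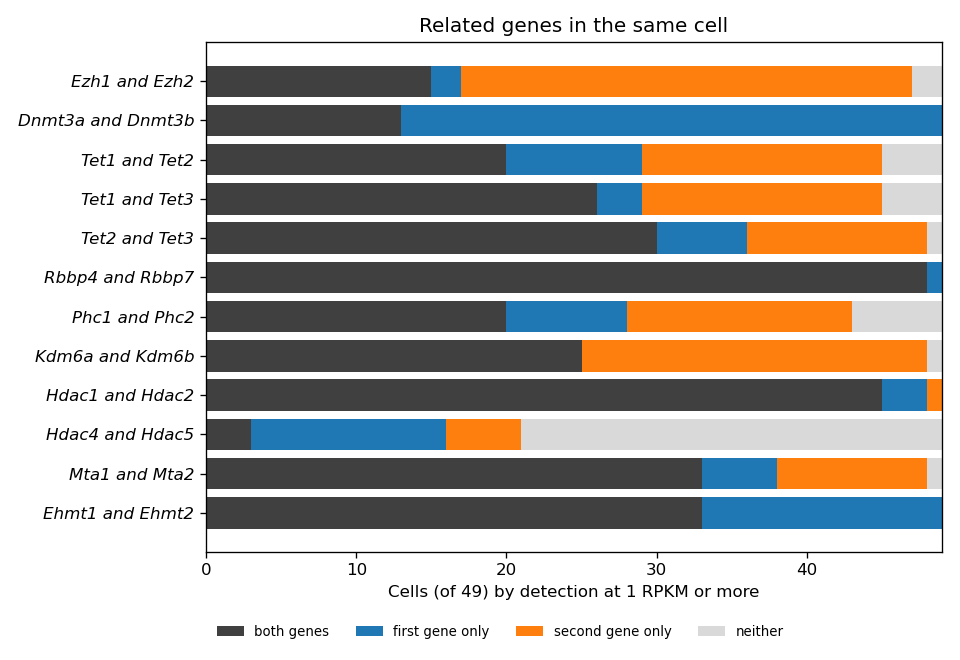
Number of the 49 cells (x axis) in which both genes, the first gene only, the second only, or neither were detected at 1 RPKM or more, for 12 pairs of related chromatin genes (y axis). Rbbp4 and Rbbp7 shared 48 cells, Ezh1 and Ezh2 shared 15, and Hdac4 and Hdac5 shared 3.

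The highest values of the group were spread over the cells. The 46 highest values fell in 27 different cells, with at most 4 in one: Rbbp4, Kdm6a, Hdac3 and Mta1 peaked in cell 26, and Dnmt3a, Tet3, Bmi1 and Hdac1 in cell 32. Levels of the genes followed each other little from cell to cell. Over the 990 pairs of the 45 genes detected in 10 or more cells, the median Spearman rho over 49 cells was 0.05, against 0.03 for pairs of all 8421 such genes. The 93 pairs from the same complex had a median of 0.04. The 5 pairs at 0.4 or more were Rbbp7 with Ctcf (0.56), Jarid2 with Chd4 (0.50), Ezh2 with Hdac3 (0.44), Tet2 with Hdac4 (0.43) and Chd4 with Mta2 (0.43), the last being the only one from a single complex. They make up 0.505% of the pairs, against 0.610% of all gene pairs. The 3 pairs at -0.4 or below were Ezh2 with Kdm1a (-0.45), Paxip1 with Hdac2 (-0.45) and Sirt1 with Chd4 (-0.40), none from a single complex. In all pairs the cells share 1 run and differ in depth, so they are given as a description.

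**Figure D3:**
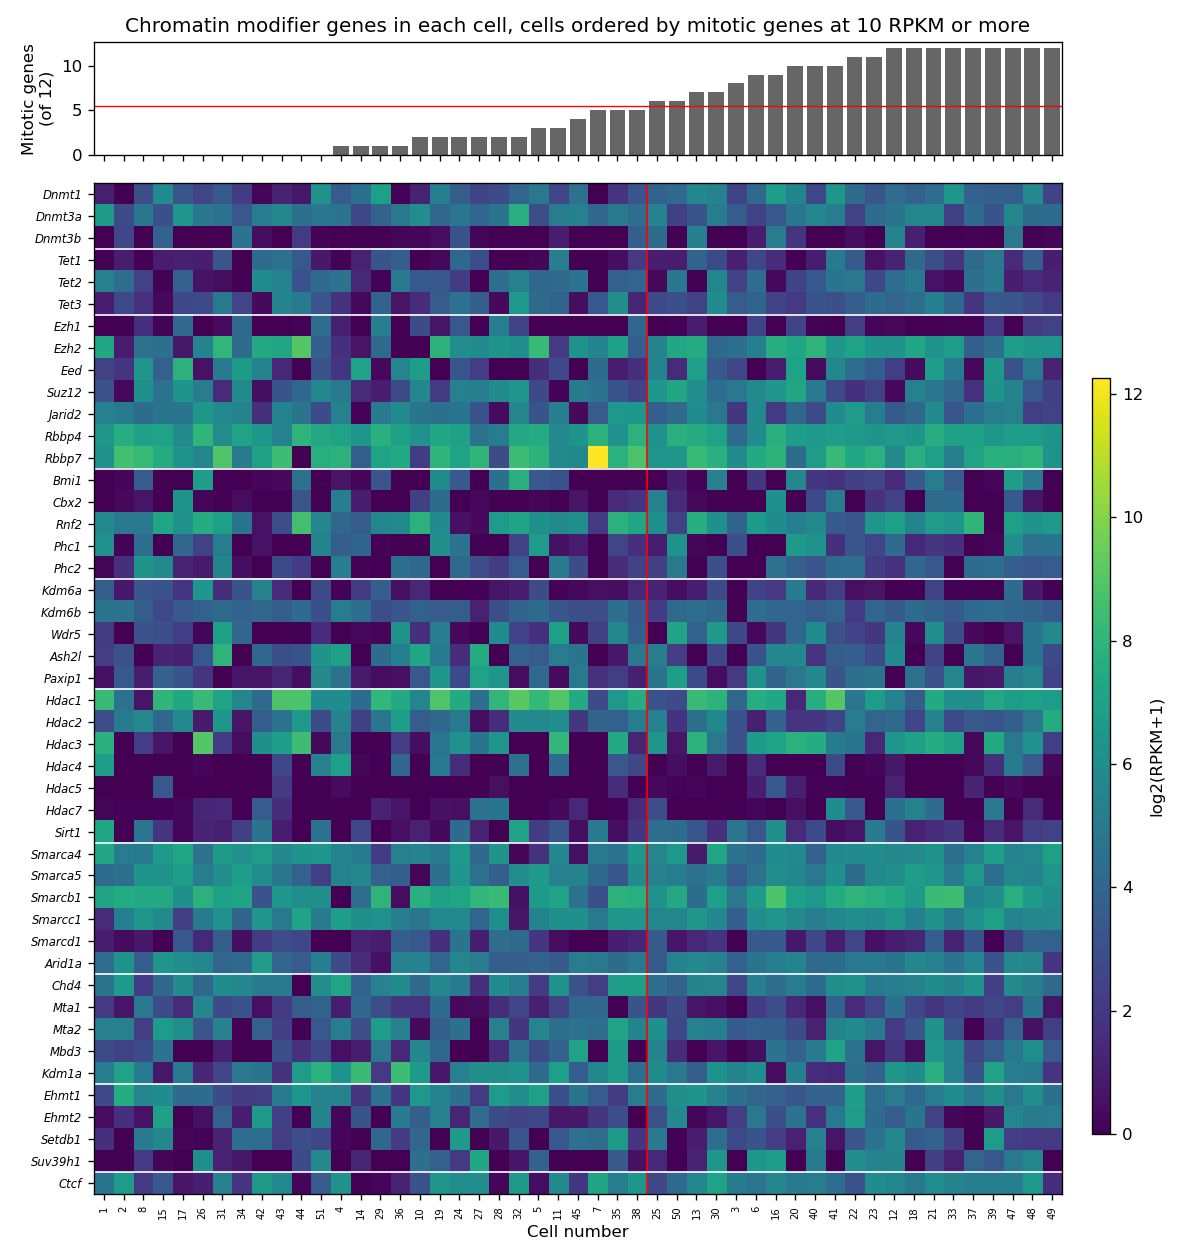
Level of each chromatin modifier gene (rows, grouped by complex with white lines) in each cell (columns), as log2(RPKM+1), with cells ordered by the number of 12 mitotic list genes at 10 RPKM or more (bars above; the red line separates cells with 6 or more). Rbbp4 is high in every column, Hdac5 is at or near 0 in most, and the Rbbp7 value of the shallow cell 7 stands above all others.

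Cells were next divided by their mitotic genes. A cell with 6 or more of 12 genes of mitosis (among them Ccnb1, Plk1, Aurkb and Bub1) at 10 RPKM or more was placed in the mitotic gene group, which held 21 cells, and the other 28 formed the rest. The division is a range rather than a type: 12 cells held 0 of the genes, 9 held all 12, and 7 held 5 to 7 and so lay near the threshold. Cells of the mitotic gene group had more genes detected (median 5820 against 4703), and 13 of the 21 had Six2 against 14 of the 28. A gene was called where the means of log2(RPKM+1) differed by at least 1, a size rule and not a test; with the added 1, such a difference understates the change of low genes.

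By that rule 6 of the 46 genes (13.0%) were higher in the mitotic gene group, where 9.95% of all genes outside the mitotic list were called higher, and 14.8% of those detected in 10 or more cells. None of the 46 was called lower, against 0.734% of all genes and 1.09% of those in 10 or more cells. The share is near the background and is not a result about the group as a whole. The median difference was 0.43 over the 46 genes, 0.17 over all genes and 0.29 over those detected in 10 or more cells. The 6 genes were Dnmt1, Ezh2, Paxip1, Hdac3, Suv39h1 and Ctcf. Each overlapped between the 2 sets of cells, and the part of the larger number of genes detected in these differences was examined only in cells with 4500 to 6000 genes (below).

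Promoter stretches are shown for the called genes with the largest differences that have an entry, to let the start regions be compared for letters bound by E2F factors, which time genes to DNA replication. Each is a RefSeq sequence of build GRCm38.p6 from 250 bases before the start to 30 after it, read 5′ to 3′ on the gene's strand, and capitals mark TTTGGCGC or TTTCGCGC on either strand. The Dnmt1 stretch is chr9:20952594-20952873 (minus strand), 1 of 3 listed starts, the Ezh2 stretch chr6:47595001-47595280 (minus strand) and the Suv39h1 stretch chrX:8074332-8074611 (minus strand), 1 of 2 listed starts.
Dnmt1: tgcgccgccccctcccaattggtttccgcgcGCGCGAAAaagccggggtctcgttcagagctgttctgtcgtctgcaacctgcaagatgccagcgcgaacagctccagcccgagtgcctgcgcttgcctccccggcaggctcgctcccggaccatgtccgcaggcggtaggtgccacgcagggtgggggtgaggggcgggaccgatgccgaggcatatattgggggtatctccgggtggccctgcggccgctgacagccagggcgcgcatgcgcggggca
Ezh2: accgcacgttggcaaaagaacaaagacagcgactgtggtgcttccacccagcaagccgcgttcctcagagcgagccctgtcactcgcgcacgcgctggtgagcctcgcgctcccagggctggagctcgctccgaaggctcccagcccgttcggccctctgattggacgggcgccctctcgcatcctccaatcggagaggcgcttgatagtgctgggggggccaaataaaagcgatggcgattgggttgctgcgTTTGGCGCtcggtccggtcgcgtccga
Suv39h1: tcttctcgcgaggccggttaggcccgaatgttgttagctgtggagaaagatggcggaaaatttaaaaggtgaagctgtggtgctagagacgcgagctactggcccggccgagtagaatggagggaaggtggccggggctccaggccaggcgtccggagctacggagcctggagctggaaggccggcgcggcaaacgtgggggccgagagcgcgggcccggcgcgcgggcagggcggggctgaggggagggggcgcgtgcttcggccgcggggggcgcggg

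Windows from 250 bases before to 50 after a start were found for 41 of the 46 genes (55 windows). No window was found for Hdac1, Cbx2, Hdac3, Ash2l and Kdm6b. Dnmt1 and Ezh2 were the only 2 of the 41 with the E2F letters, 4.88%, where 0.929% of 27025 genes with a window hold them. In Dnmt1 they begin 219 bases before the start and again 33 bases after it, beyond the printed stretch. In Ezh2 they begin 3 bases after the start, with the start base itself not counted. The other 2 Dnmt1 windows hold none. The cell cycle element TTTGAA was in windows of 12.2% of the 41 genes and 20.2% of all genes, CCAAT in 39.0% and 41.1%, and the GC box GGGCGG in 87.8% and 38.2%, each on either strand. These are matches of letters and not shown sites of binding. The 27025 genes are not limited to genes of the expression table and were not matched to the 41 for base composition.

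Dnmt1 (mm9 chr9:20711650-20764332 as the table gives it) was detected in 21 of 21 cells of the mitotic gene group, from 4.46 to 115 RPKM with a median of 18.7, and in 23 of 28 others, from 0 to 121 with a median of 6.27. In words, no mitotic gene cell lacked it, while the others ran from none to the highest value of all. The means of log2(RPKM+1) were 4.46 ± 1.32 (SD over cells) and 2.91 ± 1.95, a difference of 1.55. It was 0.83 among cells with Six2 and 2.19 among cells without, a gap that was not tested.

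Ezh2 (chr6:47480273-47545337) was likewise detected in 21 of 21 against 24 of 28 cells, with 12.0 to 250 RPKM and a median of 87.6 in the first set and 0 to 523 with a median of 44.6 in the second. The lowest cells lay outside the mitotic gene group, as did the highest one. The difference was 1.45 on the log2 scale (6.27 ± 1.22 against 4.82 ± 2.71), and between 1.34 and 1.49 within cells with and without Six2 or Foxd1. Other genes, Smarcb1 and Ctcf among them, were also detected in all 21 cells of the mitotic gene group. Any link between the E2F letters and detection was not tested.

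Hdac3 showed the largest difference of the 46, 2.13 on the log2 scale (5.36 ± 2.45 against 3.24 ± 3.30). It was detected in 19 of 21 cells, from 0.213 to 243 RPKM with a median of 82.8, against 16 of 28, from 0 to 520 with a median of 3.50. Most mitotic gene cells were thus high, but the highest value of all was in a cell outside. The difference was past 1 in both Six2 sets and both Foxd1 sets, and larger in cells without Foxd1 (3.19) than with it (1.12), which was not tested.

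Suv39h1 (chrX:7638297-7651886) was detected in 15 of 21 cells, from 0 to 115 RPKM with a median of 8.99, against 12 of 28, from 0 to 151 with a median of 0.56. Its difference was 1.48. Paxip1 (chr5:28067205-28117879) was detected in 17 of 21 cells, from 0 to 114 RPKM with a median of 21.4, against 18 of 28, from 0 to 134 with a median of 2.51, a difference of 1.23. For both genes the sets overlapped widely and differed in the middle. The highest value outside the mitotic gene group was in both genes that of cell 27, which held 7 endothelial list genes. The next outside were 67.5 RPKM for Suv39h1 (cell 26) and 84.8 RPKM for Paxip1 (cell 19). Ctcf (chr8:108160438-108206822) was detected in 21 of 21 cells, from 2.04 to 134 RPKM with a median of 36.3, against 22 of 28, from 0 to 141 with a median of 18.5. Its difference of 1.25 was 2.39 in cells without Foxd1; among cells with Foxd1 both sets had a mean of 4.69, and this gap was not tested.

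**Figure D4:**
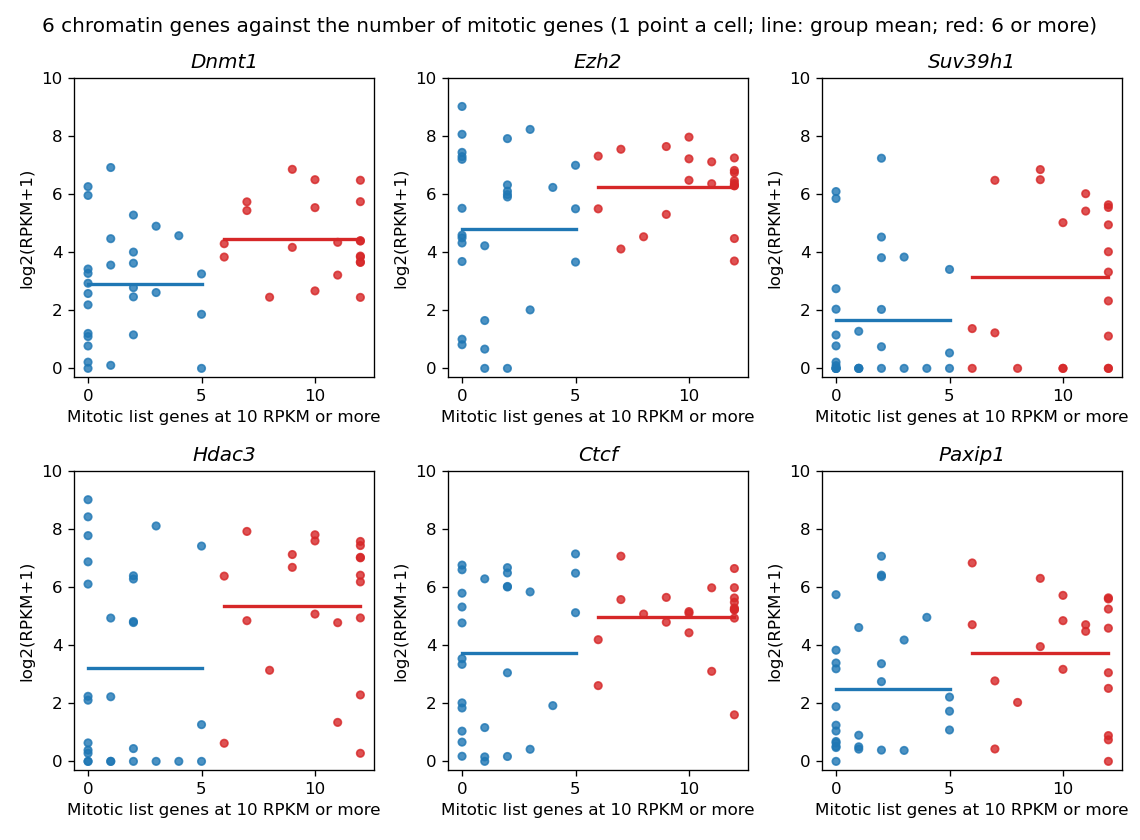
Level of Dnmt1, Ezh2, Suv39h1, Hdac3, Ctcf and Paxip1 in each cell (y axis, log2(RPKM+1)) against its number of mitotic list genes at 10 RPKM or more (x axis, of 12); red points are the 21 cells with 6 or more, blue points the other 28, and lines the group means. The sets overlap for every gene, and the low values of Dnmt1 and Ezh2 lie among the blue points.

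When only the 27 cells with 4500 to 6000 genes detected were compared, 4 genes were called higher (Dnmt1, Tet1, Hdac3 and Suv39h1), and 3 lower (Dnmt3a, Hdac4 and Mta2), where 8.47% of all genes were called higher and 5.36% lower, so these counts too are near the background. Ezh2, Paxip1 and Ctcf were then below a difference of 1. Against the mean level of the 12 mitotic genes, rho over 49 cells was 0.42 for Dnmt1, 0.32 for Mbd3, 0.31 for Paxip1 and -0.31 for Kdm6a, the only genes of the 46 at 0.3 or beyond in either direction. The 3 positive ones are 6.52% of the 46, and 7.84% of all genes reached 0.3. Against 14 replication genes (among them Mcm2, Pcna and Cdc6), rho was 0.46 for Dnmt1, 0.40 for Paxip1, 0.36 for Wdr5 and -0.50 for Kdm1a, and 6.67% of all genes reached 0.3. The number of genes detected itself had a rho of 0.65 with the mitotic level and 0.38 with the replication level.

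The 27 cells with Six2 and the 22 without had medians of 5258 and 5125.5 genes detected, and each set held 1 shallow cell. Cells with Six2 also had more of the replication genes (median of the mean log2(RPKM+1) 4.83 against 3.28), and their part in the differences below was not tested. Of the 46 genes, 4 (8.70%) were called higher in cells with Six2, where 7.30% of all genes were, and 11.1% of those in 10 or more cells. Only Tet2 was called lower, against 3.61% and 5.17%. These shares are near the background too. The median difference was 0.17 over the 46 genes, 0.07 over all genes and 0.14 over those in 10 or more cells.

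Tet2 (chr3:133126641-133207354) was detected in 17 of 27 cells with Six2, from 0 to 31.7 RPKM with a median of 4.35, and in 19 of 22 without, from 0 to 61.5 with a median of 21.1. Low cells occurred in both sets, but only 3 cells with Six2 reached the median of those without. The means of log2(RPKM+1) were 2.27 ± 1.81 and 3.83 ± 1.83, a difference of -1.56. It was -2.17 within the mitotic gene group and -1.12 in the rest. All 3 TET genes were detected together in 6 of 27 cells with Six2 and 11 of 22 without. Tet1 had a difference of -0.86 and stayed short of the size rule.

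The 4 genes called higher were Wdr5, Phc1, Dnmt1 and Paxip1. Wdr5 (chr2:27370667-27392055) was detected in 21 of 27 cells with Six2, from 0 to 143 RPKM with a median of 7.75, against 11 of 22, from 0 to 127 with a median of 1.23, a difference of 1.55 (3.41 ± 2.32 against 1.85 ± 2.24). Phc1 (chr6:122267749-122290233) was detected in 19 of 27 cells, from 0 to 107 RPKM with a median of 6.91, against 9 of 22, from 0 to 77.4 with a median of 0.717, a difference of 1.53. Both genes ran from 0 to high values on either side, and the sets differed in how many cells held them. Both kept a difference past 1 within the mitotic gene group (1.34 and 1.52) and within the rest (1.59 and 1.48).

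Dnmt1 was detected in 26 of 27 cells with Six2, with 0.0753 to 121 RPKM and a median of 17.0, against 18 of 22, with a lowest value of 0 and a median of 8.62. The difference of 1.27 was 1.66 outside the mitotic gene group and 0.30 within it, and the sets overlapped almost wholly. Paxip1 differed by 1.03, from medians of 13.3 and 1.84 RPKM. The Polycomb gene Bmi1 had 16 of 27 cells against 8 of 22 and a difference of 0.98, just short of the rule.

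Of the Foxd1 sets, the 24 cells with Foxd1 had a median of 5428 genes detected and the 25 without 4878, and both shallow cells carried Foxd1. Smarca4 alone was called higher in cells with Foxd1 (5.42% of all genes, 8.12% of those in 10 or more cells), and Ezh1 and Suv39h1 were called lower (3.00% and 4.50%). The median difference was 0.02 over the 46 genes, 0.06 over all genes and 0.06 over those in 10 or more cells.

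Ezh1 (chr11:101052429-101087764) was detected in 3 of 24 cells with Foxd1 (12.5%, interval 2.66 to 32.4%), from 0 to 17.3 RPKM with a median of 0, and in 14 of 25 without (56.0%, interval 34.9 to 75.6%), from 0 to 38.7 with a median of 2.26. Nearly all cells with Foxd1 therefore lacked it, and cells without were split. The difference was -1.34, with -1.04 in the mitotic gene group and -1.50 in the rest. Divided by both genes, Ezh1 was detected in 10 of 18 cells with Six2 only, 2 of 15 with Foxd1 only, 1 of 9 with both and 4 of 7 with neither. Cells with Foxd1 were low for Ezh1 with or without Six2. Ezh2 differed by less than the size rule between the Foxd1 sets.

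Suv39h1 was detected in 11 of 24 cells with Foxd1, from 0 to 88.6 RPKM with a median of 0.114, against 16 of 25, from 0 to 151 with a median of 3.11, a difference of -1.33. It was -1.97 in the mitotic gene group and -1.01 in the rest. The value of 151 RPKM was again that of cell 27. Smarca4 (chr9:21420613-21508674) was detected in 24 of 24 cells with Foxd1, from 13.6 to 161 RPKM, and in 22 of 25 without, from 0.121 to 112. Its medians were nearly equal, 50.5 and 50.0 RPKM. The difference of 1.07 came with the few low cells on the side without Foxd1.

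**Figure D5:**
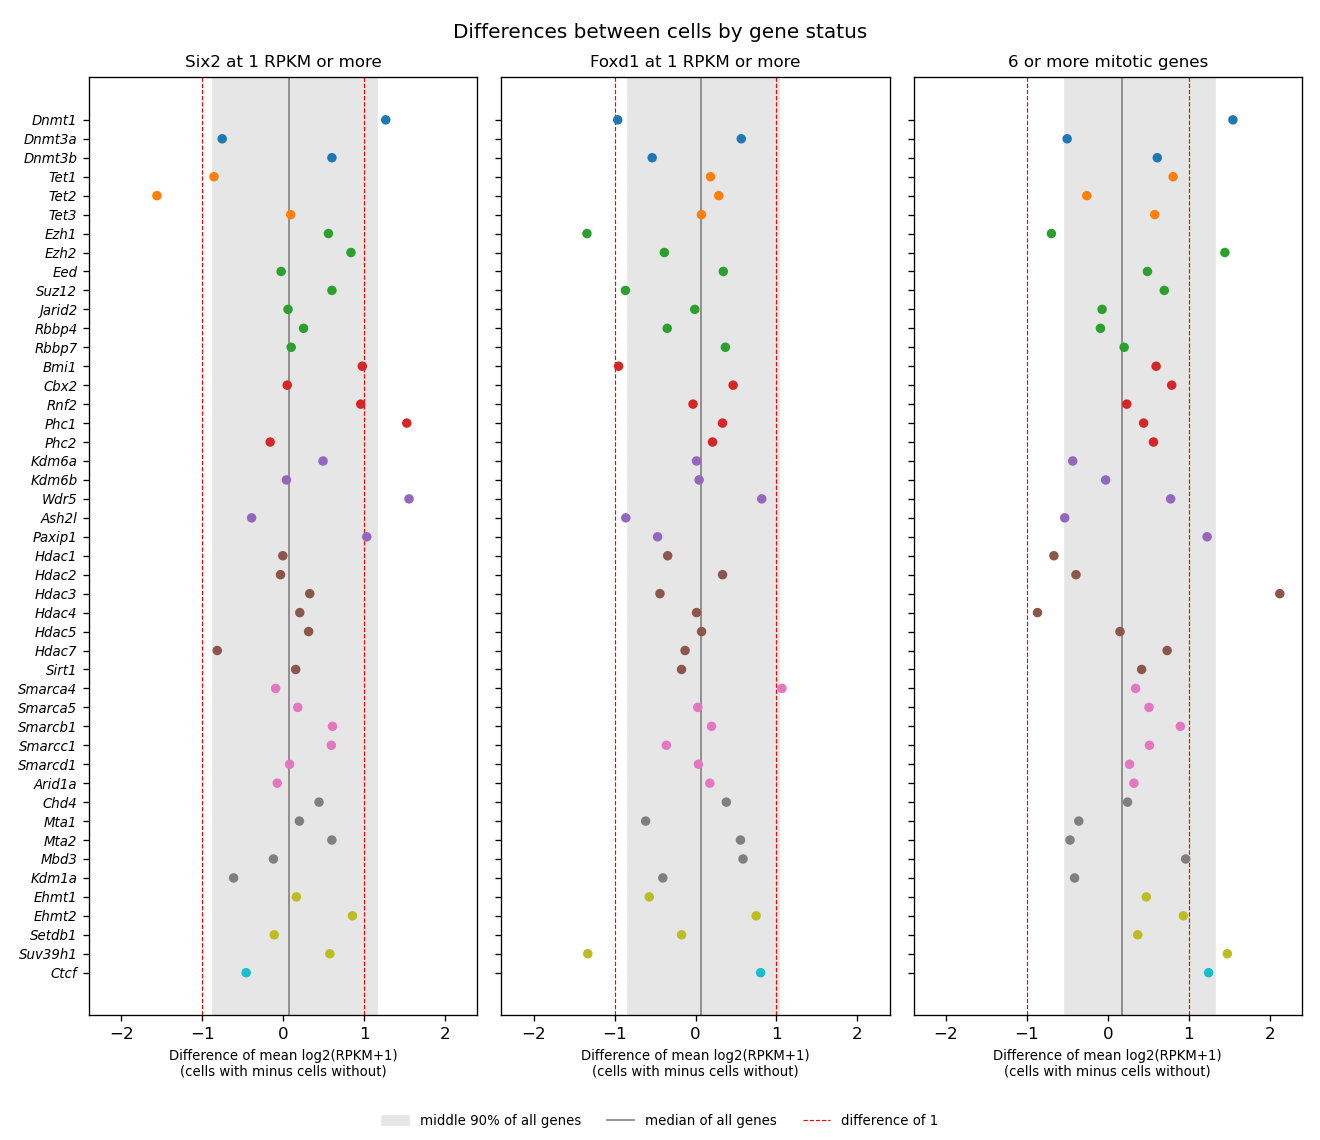
Difference of the mean log2(RPKM+1) (x axis) between cells with and without Six2, Foxd1 or 6 mitotic genes (panels) for each of the 46 genes (y axis, coloured by complex); grey bands hold the middle 90% of all genes of the table, grey lines their median and red dashed lines a difference of 1. Most points lie within the bands; Hdac3 in the mitotic panel reaches 2.13 and Tet2 in the Six2 panel -1.56.

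Complete complexes, by the genes required above, were counted by the same sets. All Polycomb repressive complex 1 genes above were detected together in 8 of 21 cells of the mitotic gene group and 2 of 28 others, and these cells differ in genes detected as given above. Polycomb repressive complex 2 was complete in 15 of 21 and 16 of 28 cells, NuRD in 15 and 17, and SWI/SNF in 13 and 15. By Six2, Polycomb repressive complex 2 was complete in 19 of 27 and 12 of 22 cells, and NuRD in 19 and 13. SWI/SNF was complete in 14 cells on each side.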

How the data were processed

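RNA of 49 single mouse cells was captured on a microfluidic chip (Fluidigm C1), amplified (SMARTer), made into Nextera XT libraries and sequenced on a HiSeq2500, per the labels' protocols. This keeps no strand and no molecular identifiers. Per the file headers the deposited values are RPKM that the authors calculated, and a further deposited column gives the count of cells above 3 RPKM. That column was rebuilt for all 13093 genes, which shows that the table holds genes above 3 RPKM in at least 1 cell. The submitters' processing notes list TopHat 1.4.1, DESeq and mm9, with no role. Not given in the sources used here are the counting tool, the gene annotation and the base (0 or 1) of the start coordinates. Read totals are unknown; relative depth comes from the steps between values below 8 RPKM.

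No cell was filtered and no doublet caller was run: chambers were inspected by microscope, per the labels' protocols. Cells were matched by number. Sets of cells were defined by Six2 or Foxd1 at 1 RPKM or more, or by 6 of 12 mitotic list genes at 10 RPKM or more. They are read from the cells and are not labelled groups. A gene was called at a difference of 1 in mean log2(RPKM+1), a pseudocount of 1. No p-values were computed. The genes, lists and rules were chosen with earlier results of these data known. All 46 genes are named, and related genes of the same complexes where called. Alternatives changed the pseudocount, thresholds, scaling and cells used. The script was tested on simulated data. Python 3.11.15, numpy 2.4.6, pandas 2.3.3, scipy 1.17.1 and matplotlib 3.10.9 were used. Symbols on several rows (26, none among the 46 genes) were left out of named lists.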

Additional observations from a re-analysis of the deposited data

How the results depend on the processing

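All 49 cells are 1 sample, so every count describes these cells alone. At 10 RPKM in place of 1, 22 genes rather than 39 were detected in most of the cells. With a pseudocount of 0.1 the size rule called 10 genes higher and 3 lower by Six2, 3 higher and 6 lower by Foxd1 and 14 higher by mitotic genes, as it called more of all genes (15.9%, 9.17%, 15.0%, 8.03% and 23.0%). With a pseudocount of 10 it called 0 and 0 by Six2, 0 and 0 by Foxd1, and 1 higher (Hdac3) by mitotic genes. Few of all genes were then called: 0.840% higher and 0.542% lower by Six2, 0.588% and 0.344% by Foxd1, and 1.34% higher by mitotic genes. In cells with 4500 to 6000 genes detected, 5 genes were lower by Six2, 9 by Foxd1 and 3 by mitotic genes (9.43%, 8.46% and 5.36% of all genes). Taking the status at 10 RPKM left 1 gene higher by Six2 (Wdr5, 6.62% of all genes) and gave 4 lower by Foxd1 (4.70%), where Ezh1 (-0.95) and Smarca4 (0.86) were no longer called. Asking for 9 of 12 mitotic genes gave 10 higher (11.4%). Outside the mitotic gene group, 3 genes were lower by Six2, 4 higher and 5 lower by Foxd1 (6.21%, 10.0% and 6.10% of all genes); within it, 5 were lower by Six2 and 6 by Foxd1 (9.77% and 8.39%). Larger shares of all genes were called in these smaller sets of cells. The last settings on cells were chosen after seeing the data. At 0.1 RPKM Polycomb repressive complex 1 was complete in 17 cells; at 5 RPKM it was complete in 3, Polycomb repressive complex 2 in 19, NuRD in 16 and SWI/SNF in 13. At 5 RPKM, Ezh1 and Ezh2 shared 6 cells, Tet1 and Tet2 12 and Hdac4 and Hdac5 0; at 0.1 RPKM, Dnmt3a and Dnmt3b shared 22 cells. The cause of these shifts was not tested. Another 57 counts, pairs of genes aside, stayed within 1.5 times, but the genes behind them could change. Where a call asked for 20 percentage points in share of cells, Ehmt2 alone was higher by Foxd1 (8.03% of all genes). Ezh1 and Bmi1 were then lower (2.77%). By mitotic genes 7 were higher (14.9%): Tet1, Tet3, Bmi1, Cbx2, Hdac3, Suv39h1 and Ctcf, without Dnmt1, Ezh2 and Paxip1. By Six2, Bmi1, Phc1, Wdr5 and Paxip1 were higher (8.60%) and Tet2 lower (4.17%). Of the named differences, Hdac3 by mitotic genes was past 1 in 9 of 9 alternatives (1.07 to 3.15), and Tet2 by Six2 in 8 of 9 (-2.17 to -0.76). Dnmt1 by Six2 was past 1 in 6 of 9 (0.30 to 1.69) and Smarca4 by Foxd1 in 5 of 9 (0.62 to 1.36). None of the 14 called differences of the 46 genes changed sign; the alternatives were not run for others named.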

Other observations

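A further 98 genes of the same complexes were found in the table. They were chosen by complex and with earlier results of these data known. By Six2, 16 of the 98 (16.3%) were called higher, beside 7.30% of all genes and 11.1% of those in 10 or more cells, and 2 were called lower, beside 3.61%. Phf19, a gene of a Polycomb repressive complex 2 accessory subunit, was detected in 23 of 27 cells with Six2 (median 23.8 RPKM) and 2 of 22 without (median 0.0970), a difference of 3.41 on the log2 scale. It also differed by -1.74 between cells with and without Foxd1. Mtf2, a related accessory gene, differed by 1.26 by Six2, and Kdm2b, which brings a Polycomb repressive complex 1 variant to unmethylated DNA, by 1.17. Uhrf1, the partner of DNMT1 at replicated DNA, had medians of 90.3 and 37.1 RPKM and a difference of 1.71, and its rho with the replication genes over 49 cells was 0.73. The NuRD gene Gatad2a was detected in 23 of 27 and 13 of 22 cells, with a difference of 1.81, and the H3K9 demethylase gene Kdm3a in 21 and 9, with 1.61. Others called higher included L3mbtl2, Men1, Dpy30, Brd7, Actl6a, Baz1a, Baz1b, Pole3 and Smc3.

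Smarca1, the second ISWI ATPase gene, went the other way from Phf19: it was detected in 6 of 27 cells with Six2 and 13 of 22 without (-1.74), and in 14 of 24 with Foxd1 and 5 of 25 without (1.71). Rybp was the other gene lower by Six2 (-1.27). By Foxd1, 3 of the 98 (3.06%) were called higher, beside 5.42% of all genes and 8.12% of those in 10 or more cells. Another 3 (3.06%) were called lower, beside 3.00% and 4.50%. These shares are at or below the background. With Smarca1, Chd3 (detected in 23 of 24 cells against 15 of 25) and Sirt5 (1.25) were higher. With Phf19, Actl6a (-1.12) and Gatad2a (-1.08) were lower. By mitotic genes 11 of the 98 (11.2%) were higher, beside 9.95% of all genes and 14.8% of those in 10 or more cells, and 1, Aebp2, was lower (-1.03), beside 0.734% of all genes. The cohesin gene Rad21 had medians of 73.3 and 2.51 RPKM and a difference of 2.92, and the SWI/SNF gene Actl6a 145 and 21.9 RPKM and 2.91. The heterochromatin protein genes Cbx1, Cbx3 and Cbx5 were detected in all 49 cells, with Cbx3 at a median of 1099 RPKM. Cells with more mitotic genes also had more genes detected, and the part of this in these values was not tested.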
